A study of Bubalus bubalis with 8 samples.

Results

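The genes described here are 10 antioxidant enzymes, most of them textbook targets of the transcription factor NRF2: HMOX1, TXNRD1, GSR, GCLM, PRDX1, GPX1, GPX4, CAT, SOD1 and NQO1. Every probe carrying 1 of these gene names on a bovine 4x44K array was taken, which gave 22 probes, and 21 of the 43653 probes of the array remained after 1 GSR probe in a dark block of the control array was left out. Of the 10 genes, 6 were read by more than 1 probe. The array carries 24839 gene names in all. RNA came from mammary epithelial cells (MECs), grown as a primary culture from the gland of a single healthy adult buffalo and used at passage 10 in collagen-coated wells at 37 °C and 5% CO2. The control (CTR) was a plate held at 37 °C throughout. The other plate was kept at 42 °C for 1 h, returned to 37 °C, and sampled at 7 time points from 30 min to 24 h later. There was 1 array per condition, so differences between conditions could not be set against replicates and carry no p-value. Which harvest time the CTR array stands for is not given in the sources used here, and all 7 comparisons share that array.

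NRF2 is held in the cytoplasm by KEAP1, which directs it to degradation. Oxidants and electrophiles modify KEAP1, and NRF2 then enters the nucleus and binds antioxidant response elements together with small MAF proteins. Its classical targets include heme oxygenase, NAD(P)H quinone oxidoreductase, the subunits of the enzyme that starts glutathione synthesis, and the reductases that regenerate glutathione and thioredoxin. In the mammary gland these enzymes deal with the peroxides formed by the high oxidative metabolism of the secretory cells.

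A level below is the log2 intensity of a probe minus the 75th percentile of its array, and a change is the difference of that level from CTR, on the same log2 scale. A probe was detected on an array where the scanner software marked it well above background. The error of a change, from the spread between spots of 1 bright probe within an array, was between 0.28 (8 h) and 0.54 (16 h), and it holds no spread between cultures. For 30 min the error was not measured on that array. It takes the spot SD of CTR in place of the array's own, which was 2.03 by its scanner intensities. Where a probe was dim on 1 of the arrays compared, the dim array took the lowest level detected there, or the probe's level where that was higher, and the fold is written as at least N-fold. A change counted as called at 3-fold, bounds included. For 30 min the log2 difference that the authors deposited was used, because the scanner intensities of that array departed from it, and a probe counted as detected there from a level of 0.24, the largest of the limits found on the remaining arrays.

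The samples were spread over 2 slides. Slide 1 carried CTR beside the 8 h, 12 h and 24 h samples, and slide 2 carried 30 min, 2 h, 4 h and 16 h, so heat stress and slide cannot be told apart for the slide 2 time points. The slide 2 arrays also stood apart in markers of cell type. Of 21 probes for milk protein genes, 1 was detected on each array of slide 1, against 18 on the 30 min array, 19 on the 2 h array, 20 on the 4 h array and 19 on the 16 h array. Of 28 leukocyte probes, between 5 and 7 were detected on slide 1, 17 on the 30 min array, 21 on the 2 h array, 10 on the 4 h array and 11 on the 16 h array. Fibroblast probes numbered 7 or 8 of 37 on slide 1, 5 on the 30 min array, 8 on the 2 h array, 16 on the 4 h array and 23 on the 16 h array. Epithelial probes numbered 11 of 15 on each slide 1 array and between 8 and 14 on slide 2. The summed epithelial level was 8.99 to 9.45 on slide 1, 7.90 at 30 min, 7.93 at 2 h, 8.45 at 4 h and 9.01 for the 16 h array. The keratin KRT8 (A_73_108833) read 6.38 to 6.99 on slide 1 and 3.28 to 4.71 on slide 2, and its 4 probes were called lower than CTR on every slide 2 array. The rest of the epithelial list was mixed. KRT5, KRT7 and KRT14 also read below CTR on every slide 2 array. On the 8 h, 12 h and 24 h arrays of slide 1, KRT5 (A_73_P048351: -0.80, -0.43 and -0.30) and KRT14 (-0.52, -0.38 and -0.58) did so too. KRT7 read above CTR there (0.59, 0.63 and 0.44). KRT19 changed by -1.57 at 30 min and 0.61 at 16 h, EPCAM by -1.02 and 0.08, and CDH1 (A_73_P067221) by -0.41 and 0.37. The KRT18 probes were dim on all slide 1 arrays. The summed log2 level of the leukocyte list was between 3.89 and 4.60 on slide 1, 8.31 on the 30 min array, 7.92 on the 2 h array, 4.35 on the 4 h array and 5.57 on the 16 h array. The summed level of the milk protein list was between 2.69 and 3.31 on slide 1 and between 6.70 and 11.47 on slide 2. The part of these other transcripts in the antioxidant values of slide 2 was not tested, and slide 1 is therefore described first for each gene. The summed level of 9 heat shock genes was 8.77 in CTR, 10.56 on the 8 h array, 9.33 on the 12 h array and 8.56 on the 24 h array of slide 1. On slide 2 it lay between 9.19 (4 h) and 9.40 (30 min), so the arrays taken soonest after heat read below that of 8 h.

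**Figure D1:**
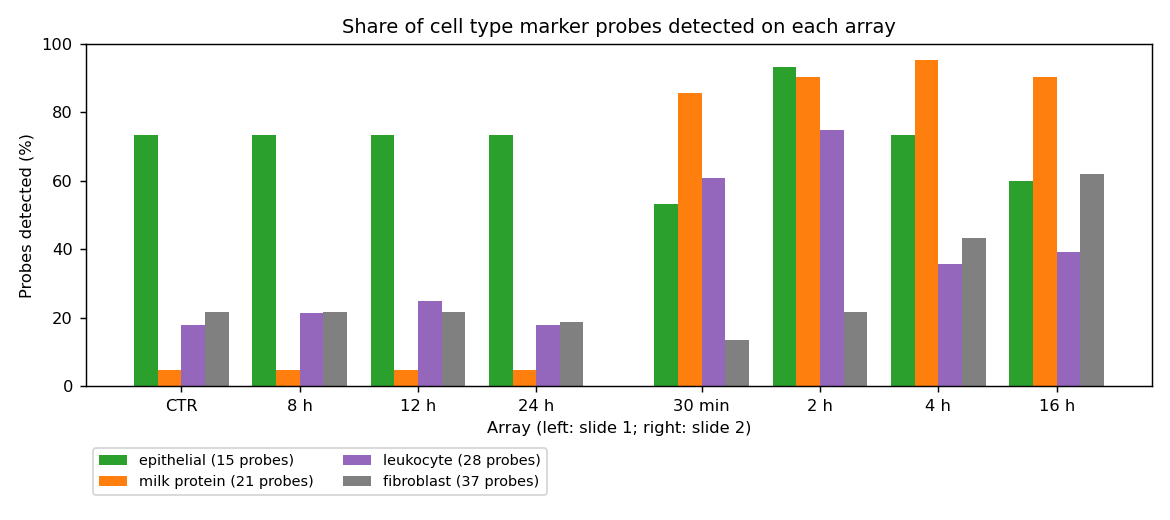
Percent of the probes of each marker list detected on each array, with slide 1 on the left and slide 2 on the right (bars, 4 lists of 15, 21, 28 and 37 probes). Milk protein probes were detected 1 of 21 on every slide 1 array and 18 to 20 of 21 on slide 2, and leukocyte probes were most often detected at 30 min and 2 h.

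The probes are 60 bases long and were designed on cattle, so each reads the buffalo transcript through the bases that the species share. Positions are those of the array design on HGSC Btau_3.1, and exon or untranslated region assignments were not used here. Only 3 pairs are printed, because these show how a gene with several probes can be read. The first pair is GPX1, where the probe A_73_P098966 is the exact reverse complement of A_73_P031771 over all 60 bases at chr22:51685240-51685299. Capitals mark 12 bases of the first probe and their complement in the second.
GPX1 A_73_P031771 (plus strand): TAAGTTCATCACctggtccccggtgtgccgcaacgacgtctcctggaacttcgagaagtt
GPX1 A_73_P098966 (minus strand): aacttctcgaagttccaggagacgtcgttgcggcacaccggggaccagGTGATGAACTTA
The second pair belongs to CAT and shares 42 bases, in capitals, at chr15:64711606-64711665 and chr15:64711624-64711683, so these probes are not independent readings.
CAT A_73_P269456: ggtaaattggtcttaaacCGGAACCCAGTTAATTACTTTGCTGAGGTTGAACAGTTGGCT
CAT A_73_P253121: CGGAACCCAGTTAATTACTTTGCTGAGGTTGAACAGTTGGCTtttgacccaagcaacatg
The third pair belongs to GPX4, and its probes share no more than 6 bases in a row. The first lies at chr7:42614859-42614990, a span of 132 bases that holds its 60 bases in more than 1 block, and the second at chr7:42614464-42614523.
GPX4 A_73_106948: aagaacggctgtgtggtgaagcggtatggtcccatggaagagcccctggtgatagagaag
GPX4 A_73_P154352: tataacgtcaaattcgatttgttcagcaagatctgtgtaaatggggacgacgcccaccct

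Of the 21 probes, 11 were detected on all 8 arrays, 8 on some and 2 on none. By array, 14 were detected in CTR, 13 on the 8 h array, 16 on the 12 h array, 11 on the 24 h array, 14 on the 30 min array, 19 on the 2 h array, 17 on the 4 h array and 14 on the 16 h array. The 30 min scanner intensities marked only 6 of them well above background, against 14 by the deposited values. In the upper rows of that array, where 7 of the antioxidant probes lay, scanner and deposited changes ran together across bright probes (Pearson's r = 0.93 over 3014 probes, a description with no test). From row 340 on r was 0.31 over 3153 probes, and 11 antioxidant probes lay there, HMOX1 among them.

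Slide 1 held 1 call among the antioxidant probes. HMOX1 was 3.20-fold higher at 8 h, where 14 of the probes could be compared and 0.552% of all probes compared were called higher. At 12 h and at 24 h no antioxidant probe passed 3-fold, against 0.162% and 0.0891% of all probes called higher and 0.465% and 0.615% called lower. Of the 11 probes detected on all 4 arrays of the slide, 9 stayed within 2-fold of CTR at 8 h, 12 h and 24 h, and 8 within 1.5-fold. These counts include a GPX1 probe that was saturated at 12 h and 24 h. Of these 11, 8 read lower than CTR at all 3 time points and 2 read higher, namely HMOX1 and TXNRD1 A_73_120942. The 8 include the saturated GPX1 probe, whose 12 h and 24 h levels are only lower limits, so its place among them is not secure. Scaling each array by its median shifts every slide 1 change by 0.17, 0.24 and -0.43 at these times, so small directions there depend on the scaling. The median change of the probes compared was -0.22 on the 8 h array, -0.41 on the 12 h array and -0.15 on the 24 h array, beside -0.13, -0.17 and -0.10 over all probes compared.

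On slide 2 the calls were 2 probes higher on the 30 min array (HMOX1 and GSR, of 15 compared), 2 on the 2 h array (the same genes, of 19), none on the 4 h array (of 17) and 2 on the 16 h array (HMOX1 and the antisense GPX1 probe, of 15). The lack of a call at 4 h depended on the processing, as given for HMOX1. The background was far larger there, with 7.61% of all probes called higher on the 30 min array, 5.34% on the 2 h array, 2.66% on the 4 h array and 5.99% on the 16 h array. No antioxidant probe was called lower at any time point, where 4.61% of all probes were on the 30 min array, 7.76% on the 2 h array, 5.39% on the 4 h array, 0.192% on the 8 h array and 5.33% on the 16 h array. The median change was 0.09 on the 30 min array, 0.00 on the 2 h array, 0.00 on the 4 h array and 0.56 on the 16 h array, beside -0.13, 0.00, 0.00 and -0.10 over all probes compared.

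**Figure D2:**
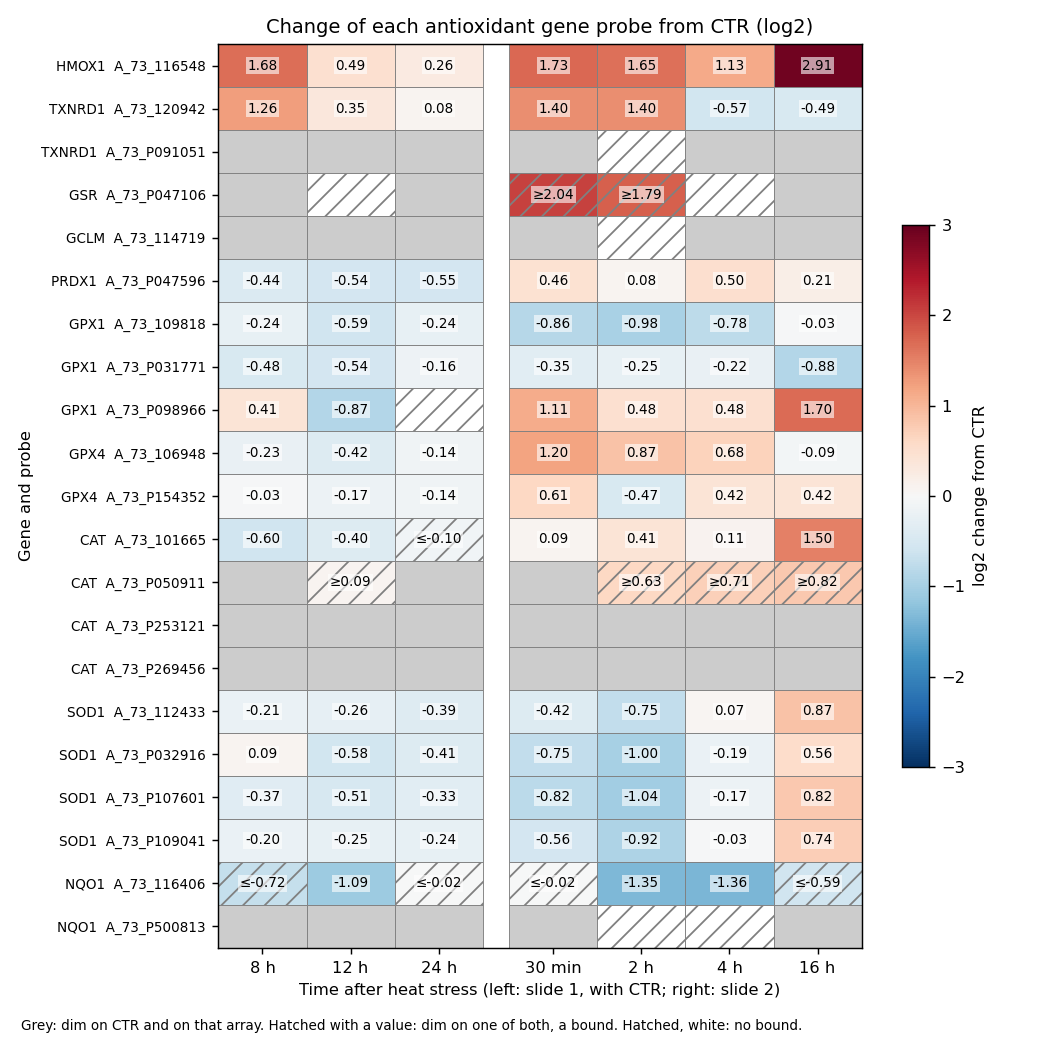
Log2 change of each of the 21 antioxidant probes from CTR (colour and number), with genes and probes in rows and time points in columns, slide 1 on the left and slide 2 on the right. HMOX1 is above 0 in every column (the 24 h value turned to -0.17 with each array scaled by its median), SOD1's 4 probes run together, cells grey where the probe was dim on CTR and on the array compared, and cells hatched where it was dim on only 1 of them, with the bound printed where there is one.

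HMOX1, heme oxygenase 1, splits heme into biliverdin, carbon monoxide and iron, and its gene is a classical target of NRF2 and also of heat shock factor. Its 1 probe (A_73_116548, chr5:79096200-79096259) was detected on all 8 arrays. Its level on slide 1 was 2.98 in CTR, 4.66 on the 8 h array, 3.47 on the 12 h array and 3.24 on the 24 h array. On slide 2 it was 4.71 on the 30 min array, 4.63 on the 2 h array, 4.11 on the 4 h array and 5.88 on the 16 h array. Every heated array thus read above CTR, with 24 h the nearest to it and 16 h the farthest.

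The change of HMOX1 was 1.68 ± 0.28 on the 8 h array (error from spots, 1 array per condition), 0.49 ± 0.33 on the 12 h array and 0.26 ± 0.36 on the 24 h array. The 24 h value lay within its error, and it turned to -0.17 when the median of each array replaced the 75th percentile. On slide 2 HMOX1 was 3.33-fold higher on the 30 min array, 3.15-fold on the 2 h array, 2.19-fold on the 4 h array and 7.5-fold on the 16 h array. The bright probes within 10 spots of it changed by a median between -0.25 and 0.15 over the 7 time points, which lay within the error of a change at every time point. At 4 h the change of 1.13 passed 3-fold under other processing, with 1.70 after normexp background correction and 2.23 with each array scaled by its median. The 30 min value depends on its source, since the scanner intensity of that array gave -1.48 in place of 1.73.

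The 8 h rise of HMOX1 was measured within slide 1 and came with 6 of 28 leukocyte probes detected, against 5 in CTR, and with 1 of 21 milk protein probes on each. At 30 min and 2 h it came with 17 and 21 leukocyte probes, and the myeloid cell genes CD14 (A_73_116002, 4.54 and 4.11) and TYROBP (A_73_118891, 5.74 and 5.25) were bright there. Both CD14 probes were dim on all 4 arrays of slide 1. At 16 h HMOX1 came with 23 of 37 fibroblast and 19 of 21 milk protein probes, with a summed fibroblast level of 8.38 against 8.50 in CTR. The share of these cells or transcripts in the slide 2 levels was not tested, and in RNA from a whole culture a change in the cells present and a change in RNA per cell cannot be told apart.

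TXNRD1, the cytosolic thioredoxin reductase, returns oxidised thioredoxin to its reduced form with electrons from NADPH. Its probe A_73_120942 (chr5:72988083-72988142) was detected on all 8 arrays. The level was 3.22 in CTR, 4.48 on the 8 h array, 3.57 on the 12 h array and 3.30 on the 24 h array on slide 1, and 4.62 on the 30 min array, 4.63 on the 2 h array, 2.65 on the 4 h array and 2.73 on the 16 h array on slide 2. The arrays thus fell into a higher set of 8 h, 30 min and 2 h, and a lower set with CTR, the remaining slide 1 arrays, 4 h and 16 h.

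No TXNRD1 change reached 3-fold as processed here, but the 2 h change was 2.01 after normexp background correction and 2.11 with each array scaled by its median, and the latter gave 2.36 for 30 min, all past 3-fold. The fold was 2.39 on the 8 h array, 2.63 on the 30 min array and 2.65 on the 2 h array, all higher than CTR. The 30 min change turned from 1.40 to -3.02 with the scanner intensities of that array. The latter is a bound, since the probe was not marked well above background there. At 4 h the change was -0.57 ± 0.36 and at 16 h -0.49 ± 0.54, and the 4 h value turned to 0.52 with each array scaled by its median. This probe lies 6 rows below the dark block of the CTR array, and the bright probes around it read -0.39 against the other arrays in CTR and changed by 0.66 at 8 h. With the change of these neighbours subtracted, an alternative chosen after the data were seen, the 8 h change of TXNRD1 was 0.60, the 30 min and 2 h changes were both 1.19, and the 12 h change turned from 0.35 to -0.14. The second TXNRD1 probe (A_73_P091051, chr5:72976943-72980957, in more than 1 block) was detected at 2 h only, at a level of -1.75, and gives no bound.

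GSR, glutathione reductase, regenerates glutathione from its oxidised form and also draws on NADPH. The probe outside the dark block (A_73_P047106, chr27:28887972-28888031) was dim in CTR (-1.16), 8 h (-0.48), 24 h (-2.08) and 16 h (-2.39). It was detected at 12 h (-0.98) and 4 h (-1.37) near the limits of those arrays, and at 30 min (1.45) and 2 h (1.2) well above them. GSR was at least 4.11-fold higher than CTR at 30 min and at least 3.45-fold higher at 2 h. The 30 min bound rests on the deposited value. By the scanner intensities of that array the probe read 1.04 and was not marked well above background, which leaves no 30 min call. No direction can be read at 12 h or 4 h, where the levels lay below the detection limit of CTR. With a common floor for all arrays the bounds were 1.21 (30 min) and 0.96 (2 h) on the log2 scale, and normexp background correction gave 0.84 for 2 h, all under 3-fold. The bright probes around it changed by -0.74 at 30 min and -0.68 at 2 h.

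The GSR probe inside the dark block (A_73_119453, row 287 and column 32) was left out of all counts, since bright probes around it read -1.30 against the other arrays in CTR. Its levels are given once, as the value just inside the block: -1.15 in CTR (dim), 3.76 on the 30 min array, 3.09 on the 2 h array, -0.26 on the 4 h array, 0.01 on the 8 h array, 0.07 on the 12 h array, -1.31 on the 16 h array (dim) and -0.32 on the 24 h array (dim). The probes nearest to the block on the outside were that of GCLM, at row 225 and column 60 with neighbours at -0.49 in CTR, and TXNRD1 A_73_120942. For the GSR probe inside the block the deposited 30 min value and the 2 h array were the highest. Its 30 min scanner level was -1.17 and was not marked well above background, so it is no second reading of GSR at 30 min.

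**Figure D3:**
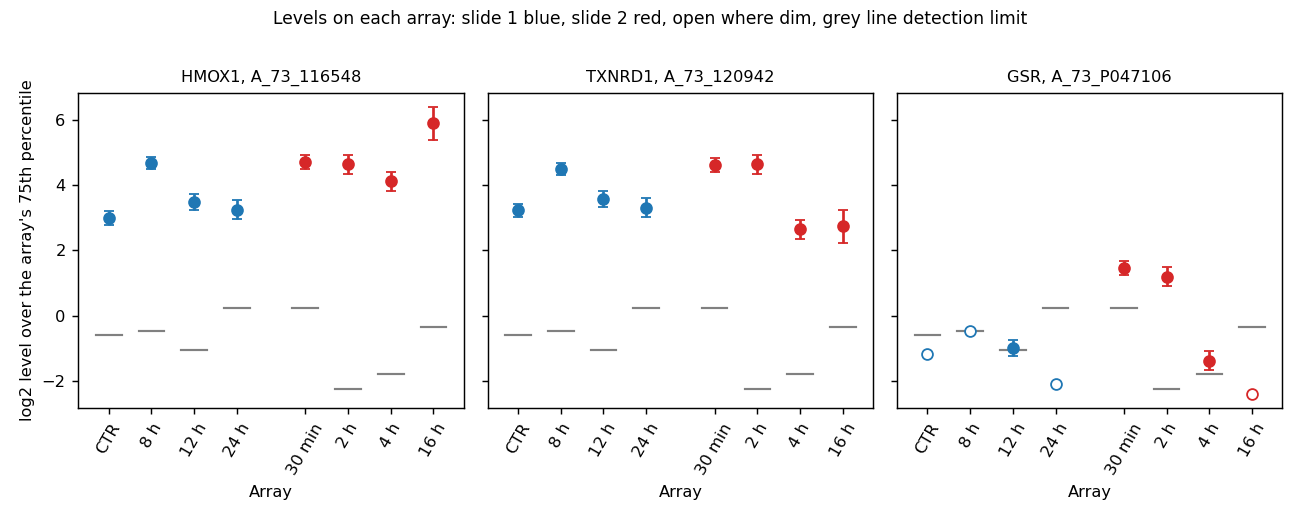
Levels (log2 over the 75th percentile of the array) of HMOX1, TXNRD1 and GSR probes on the 8 arrays, with slide 1 in blue, slide 2 in red, error bars of 1 SD between spots of 1 bright probe (30 min uses that of CTR), open points where the probe was dim and grey lines at the detection limits. HMOX1 peaks at 16 h (5.88), TXNRD1 is highest at 8 h, 30 min and 2 h (4.48 to 4.63), and GSR is clear of its limit only at 30 min and 2 h.

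GCLM is the modifier subunit of the ligase that starts glutathione synthesis. Its 1 probe (A_73_114719, chr3:52909767-52909826) was detected only at 2 h, at a level of -0.67, and was dim on the other 7 arrays between -2.34 (16 h) and -0.95 (30 min). No fold is given, since the detection limit of CTR lay above the 2 h level. NQO1, the quinone reductase, had probes that share 45 bases. The first (A_73_116406, chr18:35812049-35812108) had a level of 0.25 in CTR, -0.84 on the 12 h array, -1.09 on the 2 h array and -1.11 on the 4 h array, and was dim on the arrays of 8 h, 24 h, 30 min and 16 h. CTR was the highest array, and the others did not reach it. The fold was 2.13 lower on the 12 h array, 2.55 on the 2 h array and 2.57 on the 4 h array. At 8 h it was at least 1.65-fold lower, and at 16 h at least 1.51-fold. These differences rest on levels near the detection limits, and with a common floor at 0.24 the change was -0.02 at all of these time points. The second NQO1 probe (A_73_P500813) was detected at 2 h (-1.86) and 4 h (-0.88) and dim on the other 6 arrays, so it did not allow a comparison with CTR.

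PRDX1 is a peroxiredoxin that reduces hydrogen peroxide and is itself reduced by thioredoxin. Its probe (A_73_P047596, chr3:107472210-107472537) was detected on all arrays, with levels of 3.67 in CTR, 3.24 on the 8 h array, 3.13 on the 12 h array and 3.13 on the 24 h array, and on slide 2 of 4.13 on the 30 min array, 3.75 on the 2 h array, 4.18 on the 4 h array and 3.88 on the 16 h array. The heated arrays of slide 1 read below CTR and those of slide 2 above it, each by less than 1.5-fold as processed here. With each array scaled by its median the 4 h change was 1.59, past 3-fold, and the scanner intensities gave 3.31 for 30 min in place of 0.46. The slide 1 changes were -0.44 ± 0.28, -0.54 ± 0.33 and -0.55 ± 0.36. With the change of nearby probes subtracted they were -0.28, -0.25 and -0.14, within the error at 12 h and 24 h and equal to it at 8 h.

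GPX1, the main cytosolic glutathione peroxidase, was detected on all arrays by both sense probes. A_73_P031771 read 7.28 in CTR, 6.79 on the 8 h array, 6.73 on the 12 h array and 7.12 on the 24 h array, and 6.93 on the 30 min array, 7.02 on the 2 h array, 7.06 on the 4 h array and 6.40 on the 16 h array. A_73_109818 (chr22:51685481-51685540) read 7.83 in CTR, 7.59 on the 8 h array, 7.24 on the 12 h array and 7.58 on the 24 h array, and 6.97 on the 30 min array, 6.85 on the 2 h array, 7.05 on the 4 h array and 7.80 on the 16 h array. It was saturated at 12 h and 24 h. The first probe read lower on every heated array, by up to 1.84-fold. The second read lower than CTR by up to 1.97-fold on the arrays where it was not saturated, at 16 h by -0.03, within the error, and its saturated levels are only lower limits that cannot be ranked against CTR.

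The sense probes of GPX1 differed from each other on slide 2. At 16 h the first changed by -0.88 ± 0.54 and the second by -0.03 ± 0.54, and at 2 h by -0.25 ± 0.35 and -0.98 ± 0.35. Around the first probe the bright spots of the 16 h array changed by -1.23, more than the probe itself. On slide 1 the SD between these probes was 0.17 at 8 h, the array of that slide after heat on which neither was saturated. The sign of the GPX1 change also depended on the scaling, since the first probe turned to 0.61 on the 30 min array, 0.45 on the 2 h array and 0.87 on the 4 h array with each array scaled by its median, and quantile normalization gave 0.12, 0.40 and 0.29. With the 30 min scanner intensities the changes of that array were 2.52 for the first probe and 2.00 for the second, in place of -0.35 and -0.86.

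The probe for the opposite strand of GPX1 (A_73_P098966) was detected on 7 arrays. Its level was 0.22 in CTR, 0.63 on the 8 h array, -0.65 on the 12 h array and dim on the 24 h array, and 1.32 on the 30 min array, 0.70 on the 2 h array, 0.70 on the 4 h array and 1.91 on the 16 h array. The sense probe at the same 60 bases did not move with it, changing by -0.88 at 16 h where the antisense probe changed by 1.70, a 3.24-fold rise. This rise is the only call for GPX1. It rests on the 16 h array alone, and after normexp background correction the change was 0.92. The bright probes around it changed by -0.03 at 16 h.

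GPX4 reduces lipid hydroperoxides within membranes and is the peroxidase that guards cells against ferroptosis. A_73_106948 read 3.81 in CTR, 3.58 on the 8 h array, 3.39 on the 12 h array and 3.67 on the 24 h array, and 5.01 on the 30 min array, 4.68 on the 2 h array, 4.49 on the 4 h array and 3.72 on the 16 h array. A_73_P154352 read 2.61 in CTR, 2.58 on the 8 h array, 2.44 on the 12 h array and 2.46 on the 24 h array, and 3.21 on the 30 min array, 2.13 on the 2 h array, 3.02 on the 4 h array and 3.02 on the 16 h array. On slide 1 all changes of GPX4 lay between -0.42 and -0.03, and only that of A_73_106948 at 12 h (error 0.33) was larger than its error.

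On slide 2 the GPX4 probes went apart at 2 h, with changes of 0.87 and -0.47, an SD of 0.95 between them. Over the 2240 genes with several probes detected on CTR and at 2 h, the median SD between probes was 0.40. The bright probes around A_73_P154352 changed by -0.81 at 2 h. At 30 min the deposited values gave GPX4 changes of 1.2 and 0.61. The scanner intensities gave 4.08 and a bound of -2.41, since A_73_P154352 was not marked well above background there. The error of 0.30 at 30 min rests on the spots of CTR and does not cover this difference. Neither deposited change reached 3-fold, but that of A_73_106948 was 2.16, past 3-fold, with each array scaled by its median.

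CAT, catalase, breaks down hydrogen peroxide in peroxisomes. Its most often detected probe (A_73_101665, chr15:64725105-64725164) read 0.33 in CTR, -0.27 on the 8 h array, -0.07 on the 12 h array, and was dim on the 24 h array. On slide 2 it read 0.42 on the 30 min array, 0.74 on the 2 h array, 0.44 on the 4 h array and 1.83 on the 16 h array. The 16 h array was the highest, at 2.83-fold over CTR, with 23 of 37 fibroblast probes detected there, against 8 in CTR. The summed fibroblast level was 8.38 at 16 h and 8.50 in CTR. After normexp background correction the 16 h change was 0.74 in place of 1.5. The probe A_73_P050911 (chr15:64723959-64724623) was dim on CTR and the arrays of 8 h, 24 h and 30 min, and was at least 1.77-fold higher than CTR on the 16 h array, 1.63-fold on the 4 h array, 1.55-fold on the 2 h array and 1.06-fold on the 12 h array. The overlapping pair printed above was not detected on any array.

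SOD1, the copper and zinc superoxide dismutase, was read by 4 probes that share no more than 6 bases in a row, all on the minus strand, from chr1:2912339-2912398 to chr1:2914467-2915353. All 4 were detected on every array. In CTR their levels were 3.87, 4.80, 3.49 and 4.98 for A_73_112433, A_73_P032916, A_73_P107601 and A_73_P109041. In the same order they were 3.12, 3.80, 2.44 and 4.06 at 2 h, and 4.74, 5.36, 4.31 and 5.72 at 16 h. The 8 h array read 3.66, 4.89, 3.12 and 4.78, the 12 h array 3.62, 4.22, 2.98 and 4.73, and the 24 h array 3.48, 4.39, 3.16 and 4.73. The remaining slide 2 arrays read 3.45, 4.05, 2.67 and 4.42 for 30 min and 3.94, 4.61, 3.32 and 4.95 for 4 h. For every probe 2 h was the lowest array and 16 h the highest, as processed here. This order depended on the scaling. With each array scaled by its median, the mean change was 1.01 at 4 h against 0.62 at 16 h. It was -0.78 at 24 h against -0.23 at 2 h.

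The mean change of the 4 SOD1 probes was -0.17 ± 0.19 on the 8 h array (SD between probes of 1 array, which share that array and are no replicates of the condition), -0.40 ± 0.17 on the 12 h array and -0.34 ± 0.07 on the 24 h array. On slide 2 it was -0.64 ± 0.18 on the 30 min array, -0.93 ± 0.13 on the 2 h array, -0.08 ± 0.13 on the 4 h array and 0.75 ± 0.13 on the 16 h array. The probes differed less than the median gene with several probes, whose SD was 0.26 at 8 h and 0.43 at 16 h. The largest mean fold was 1.90, lower at 2 h, and 1.68, higher at 16 h, both under 3-fold. With the 30 min scanner intensities A_73_P107601 turned from -0.82 to 2.11. The other 3 probes were not marked well above background there, so their values between -4.78 and -3.67 are bounds.

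The directions of SOD1 held unequally across scalings. The mean at 2 h stayed below 0, between -0.96 and -0.23, and that at 16 h stayed above 0, between 0.50 and 0.75. The mean on the 30 min array turned to 0.32 and that on the 4 h array to 1.01 with each array scaled by its median, and the mean on the 12 h array to 0.04 and on the 4 h array to 0.56 after normexp background correction. With the change of nearby probes subtracted the slide 1 means were -0.01 on the 8 h array, -0.09 on the 12 h array and -0.18 on the 24 h array.

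**Figure D4:**
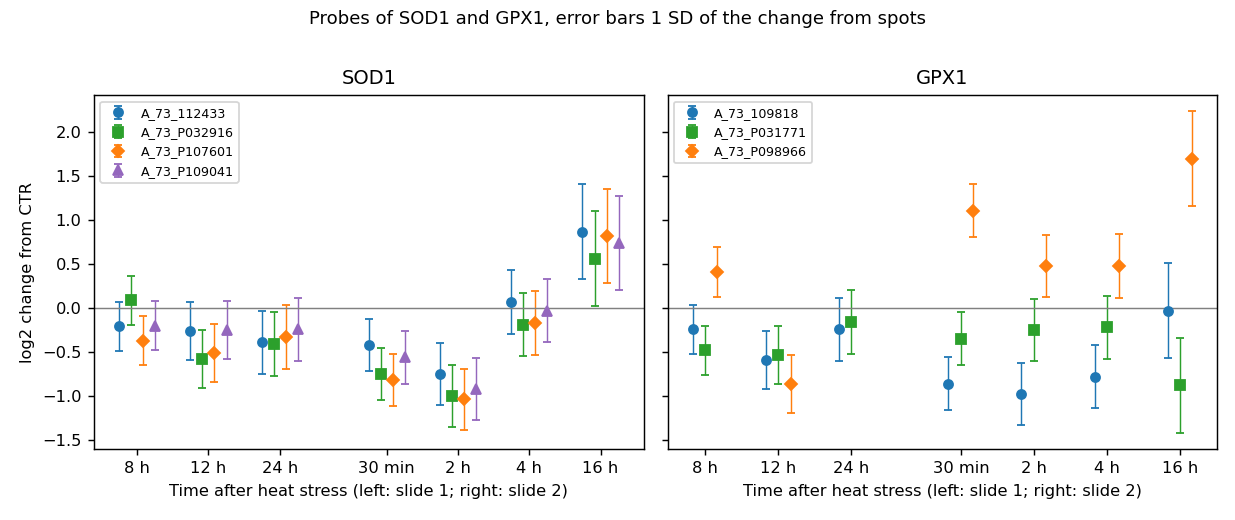
Log2 change from CTR (points, error bars of 1 SD of a change from spots) of the 4 SOD1 probes and the 3 GPX1 probes at 7 time points, slide 1 on the left and slide 2 on the right. The SOD1 probes move together from -0.93 (mean, 2 h) to 0.75 (16 h), while the antisense GPX1 probe (A_73_P098966) reads 1.70 at 16 h and the sense probes read -0.03 and -0.88. It has no point at 24 h, where it was dim.

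A contrast within slide 2 leaves the slide aside. The mean of 30 min and 2 h was set against the mean of 4 h and 16 h, with dim arrays at their limits. Over the 19 antioxidant probes detected on at least 1 of these arrays the median difference was -0.20, with a range from -1.26 to 2.18, beside -0.02 over all 17366 probes compared. GSR (2.18) and TXNRD1 (A_73_120942, 1.93) were at least 3-fold higher in the earlier arrays, where 4.83% of all probes were, and none of the antioxidant probes was at least 3-fold lower, where 1.42% of all probes were. The 4 SOD1 probes were lower in the earlier arrays by 1.05 to 1.26 on the log2 scale (-1.05, -1.06, -1.26 and -1.09). HMOX1 differed by -0.33. The leukocyte list moved with this contrast. It was detected in 17 and 21 of 28 probes on the earlier arrays and 10 and 11 on the later ones. The milk protein list moved the other way (summed 7.66 and 6.70 against 10.6 and 11.47). Fibroblast probes detected also did (5 and 8 against 16 and 23 of 37), but the summed fibroblast level did not (8.04 and 7.75 against 7.23 and 8.38). The part of these lists was not tested.

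The other genes of the pathway were taken from a list of 75 genes, of which 69 had 155 probes outside the dark block. On slide 1 none of these probes was called in either direction, of 81 compared on the 8 h array, 86 on the 12 h array and 77 on the 24 h array. On slide 2, 9 were higher and 2 lower on the 30 min array (of 85), 8 and 2 on the 2 h array (of 105), 5 and 1 on the 4 h array (of 98), and 9 and 4 on the 16 h array (of 85). The median change of the probes compared was -0.14 on the 8 h array, -0.20 on the 12 h array, -0.11 on the 24 h array and 0.39 on the 16 h array, and 0.00 on the remaining slide 2 arrays. All calls of the pathway list thus lay on slide 2, where the percentages of all probes called are those given above.

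Among the regulators, NFE2L2, which encodes NRF2, had no call, and its probe detected on all arrays (A_73_P039376) changed by 0.33 at 2 h and -0.62 at 24 h, the ends of its range. KEAP1, its inhibitor, was called at 2 h (3.20-fold, A_73_116141) and 4 h (3.59-fold), and by A_73_P420241 at 4 h and 16 h (3.1-fold each). The first KEAP1 probe lies 3 rows above the dark block. MAFF, a small MAF partner, was 4.70-fold higher on the 30 min array and 3.17-fold on the 2 h array (A_73_103456), and read below CTR on the 4 h array (-1.33).

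At 30 min the probes called higher numbered 1 of 9 compared for the regulators, 3 of 12 for glutathione peroxidases and transferases and 1 of 21 for the thioredoxin group. They numbered 1 of 3 for superoxide dismutases, 1 of 16 for heme and iron and 2 of 12 for NADPH enzymes. None was called for export and stress (of 10) or for glutathione synthesis and cystine uptake (of 2). These are small counts beside the 7.61% of all probes. SRXN1, which repairs overoxidised peroxiredoxins, was at least 12.3-fold higher at 30 min and 11.3-fold at 2 h (A_73_P123531) and was dim or near its limit on the other arrays. SOD2, the mitochondrial superoxide dismutase, was at least 16.0-fold higher on the 30 min array, 17.3-fold on the 2 h array and 3.17-fold on the 16 h array. BLVRB, a biliverdin reductase that acts after heme oxygenase, was at least 21.4-fold and 16.5-fold higher by A_73_P118281 but changed by -0.21 and -0.61 by A_73_113117. None of these genes passed 3-fold on a slide 1 array. The leukocyte list was highest on the same arrays of 30 min and 2 h, with 17 and 21 of 28 probes detected, and its part in these values was not tested.

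PGD, which makes NADPH in the pentose phosphate pathway, was 7.19-fold higher at 30 min and 8.18-fold at 2 h (A_73_113428). Its other probes read changes of 1.13, 1.74 and 0.74 at 30 min (A_73_P031211, A_73_P279728 and A_73_P338311), of which 1.74 also passed 3-fold, so the size of the PGD change depended on the probe. GSTT1, a glutathione transferase, was 9.12-fold higher at 30 min and 6.93-fold at 2 h (A_73_P044096). AKR1B1, an aldose reductase, was 3.68-fold lower at 30 min and 3.12-fold lower at 2 h by A_73_P053091, and its other detected probes did not pass 3-fold.

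A further set moved on most or on the later arrays of slide 2. MGST1, a membrane-bound glutathione transferase, was 4.24-fold higher on the 30 min array, 5.23-fold on the 2 h array, 10.9-fold on the 4 h array and 12.8-fold on the 16 h array (A_73_P033716). Its probe sits 3 columns from the dark block, and its neighbours read -0.66 in CTR. GLRX, glutaredoxin, was 4.35-fold higher at 4 h and 5.24-fold at 16 h (A_73_P072311). IDH1, a cytosolic NADPH source, was at least 3.44-fold and 5.24-fold higher at the same time points. The summed milk protein level was highest on these arrays (10.6 and 11.47). The fibroblast list had 16 and 23 of 37 probes detected there, with summed levels of 7.23 and 8.38 against 8.50 in CTR. The part of these lists was not tested.

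GPX8, a peroxidase of the endoplasmic reticulum, was called lower on all 4 arrays of slide 2. Its probe A_73_P039611 read 1.95 in CTR, 2.53 on the 8 h array, 1.80 on the 12 h array and 1.06 on the 24 h array, against -1.65 on the 2 h array and -1.17 on the 4 h array, and it was dim on the arrays of 30 min and 16 h. GPX8 was 12.1-fold lower on the 2 h array, 8.71-fold on the 4 h array, at least 3.29-fold on the 30 min array and at least 4.90-fold on the 16 h array. Its other probe, A_73_P133491, was dim on all 8 arrays. The study lists GPX8 among the down-regulated genes by A_73_P133491, the probe that was dim here, and not by A_73_P039611. It lists DUSP16, GPX7 and SOD3 under oxidative stress. DUSP16, a phosphatase of stress kinases, was at least 2.08-fold higher at 30 min and 1.74-fold at 2 h (A_73_118238) and dim elsewhere. The GPX7 probe (A_73_103760) was detected at 2 h only, and both SOD3 probes, for the extracellular superoxide dismutase, were dim on all 8 arrays.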

How the data were processed

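The authors scanned the Cy3 arrays with a GenePix scanner. The processed intensity they deposited comes from Feature Extraction 9.5.3.1, with spatial detrending inside each array and no scaling between arrays. A log2 value table that the authors deposited was made in GeneSpring, normalized to the 75th percentile per array and then centred at the median of every probe across the 8 arrays. Differences of these log2 values matched those of the scanner intensities (r of 1 to 2 decimals) apart from 30 min (r = 0.77, median difference 2.86 over 4948 probes). The log scale and sign of the deposited values thus match the scanner intensities at the other time points. They do not for 30 min, where r was 0.19 in rows 200 to 339 and 0.31 below them. Both versions rest on the same intensities and the same 75th percentile scaling. Their match therefore does not settle the direction of a change under other scalings. The raw mean and background intensities, deposited uncorrected, served only for normexp.

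Here log2 intensities minus the 75th percentile over 43653 probes were used, spots with outlier marks left out and spots of 1 probe averaged (each antioxidant probe has 1 spot). Detected probes made up 23.2% to 40.2% of an array, and the number of arrays limits the precision. Spots of 1 bright probe varied by an SD of 0.188 to 0.5, and of 2.03 by the 30 min scanner intensities. The call rule was tested on simulated data. All 21 probes outside the dark block (rows 216 to 330, columns 30 to 59) were named. Of the pathway list, genes called at 2 or more time points or at 8 h, 12 h or 24 h were named, with GPX7, GPX8, DUSP16 and SOD3. Members and lists were chosen with earlier results of these data known. All 10 symbols are in the buffalo RefSeq table. Alternatives were other background corrections, scalings, filters, floors and cutoffs. Promoter motifs were not analysed here. Software was Python 3.11.15 with numpy 2.4.6 and pandas 2.3.3, and limma 3.58.1 for normexp (offset 50).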

Additional observations from a re-analysis of the deposited data

How the results depend on the processing

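Of 147 medians and counts recomputed, 128 stayed within the error of a change or, for counts, within 1.5 times. The median change of the antioxidant probes moved to 1.05 for 30 min, 0.45 for 2 h, 1.06 for 4 h and -0.58 for 24 h when arrays were scaled by their median. That scaling shifts every change by 0.96, 0.70, 1.09 and -0.43 for these arrays, and it gave 7 genes at least 3-fold higher in place of 3. Normexp background correction gave medians of 0.49 at 4 h and -0.02 at 12 h, and was not run for 30 min, whose values are the deposited ones. The 30 min median was -0.35 with no filter on dim probes, 0.46 over gene means and 0.76 with the change of nearby probes subtracted, which also gave -0.08 at 12 h. The 2 h median was -0.36 for probes detected on both arrays. The 3 genes higher (HMOX1, GSR and GPX1) became 6 with the 30 min scanner intensities and 6 at a 2-fold cutoff, and 1 (HMOX1) on slide 1 alone. GPX1 was called at 16 h only, so without that array 2 remained by construction, HMOX1 and GSR. The count of 0 genes lower became 3 with the 30 min scanner intensities, 3 with no filter, 2 at a 2-fold cutoff and 2 with dim arrays at their measured values. HMOX1 at 30 min turned from 1.73 to -1.48 with the scanner intensities. Apart from the scanner intensities, whose departure from the deposited values is given above, the causes were not tested. Nearby probes subtracted, slide 1 alone, dim arrays at measured values and the antisense GPX1 probe left out were chosen after seeing the data. Of 868 recomputed changes of single probes, 686 stayed within the error. Both tallies include settings close to the main processing by construction: outlier-marked spots kept, deposited values throughout, and the 75th percentile over bright probes. Each of these left all 110 of its single-probe changes within the error. Beyond it were 62 with median scaling (48 within), 47 with nearby probes subtracted (63 within) and 43 with normexp (52 within). No paired analysis was possible because every condition has 1 array and all carry replicate number 1.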
